A study of Mus musculus with 2 samples.

Results

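The cytochrome P450 genes of mouse liver were examined in hepatocytes of CCl4-treated p16-Tom mice. Members were all genes whose symbol starts with Cyp followed by a family number, a subfamily letter and a gene number, which gave 94 of the 19073 measured features in 39 subfamilies. Cyp51 has no subfamily letter and so was not a member. The rule used names only, though it was set with earlier results of these data known.

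Single-cell RNA sequencing of fixed cells was performed on 1 Tom- library (p16low) and 1 Tom+ library (p16high). Both came from male p16-Tom mice given CCl4 and tamoxifen. These mice are heterozygous for p16-CreERT2 and carry the R26-CAG-LSL-tdTomato-WPRE reporter on the C57BL/6 background, so tamoxifen marks cells in which the p16 promoter is then active. CCl4 was given for 4 weeks, and the ages were not given in the sources used here. The number of mice behind each library was not stated, and no untreated library or series of days after CCl4 was measured by this assay. The return of pericentral P450 expression after CCl4 therefore could not be followed, and each layer value below is a level after repeated injury in both groups. With 1 library per group there was no replicate and no test, and 95% intervals cover counting error only.

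The libraries held 681279005 (Tom-) and 715333889 (Tom+) unique molecular identifiers (UMIs, each counted as 1 captured molecule). The hepatocyte clusters held 10854 Tom- cells with a median of 32329.5 UMIs and 9932 Tom+ cells with a median of 35286.5 UMIs. Levels are given as CPM, a gene's UMIs rescaled to the usual common library total. tdTomato stood at 73.0 CPM in Tom- hepatocytes and at 813.6 CPM in Tom+ hepatocytes, the direction of the sort. Cdkn2a, the gene of p16, had 66 and 70 UMIs in all. The libraries shared 503 cell barcodes. Cells of 3 hepatocyte clusters that held at least 90% Tom+ cells made up 11.7% to 26.8% of the Tom+ cells at each lobule position and at most 1.29% of the Tom- cells, and library ratios at matched position that passed the limit used below are given with and without them.

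Cytochrome P450 enzymes are haem proteins that insert oxygen into drugs, steroids, fatty acids, bile acid precursors and retinoids, and most of them take their electrons from P450 oxidoreductase. In the liver lobule many of them are most active in hepatocytes around the central vein (pericentral) and few around the portal tract (periportal). CCl4 damages pericentral hepatocytes because Cyp2e1 there turns it into a reactive radical. Each hepatocyte was placed along this axis by a score of landmark genes that held no Cyp gene, and the cells were divided into 6 layers, with layer 1 pericentral and layer 6 periportal. Genes kept out of the score followed the layers. The log2 ratio of layer 1 to layer 6 was 6.94 in Tom- and 6.10 in Tom+ cells for pericentral Slc1a2, and it was -3.84 and -4.61 for periportal Etnppl.

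Promoter sequences of 3 members are shown because their levels along the lobule or between the libraries carry the results below. Cyp2e1 and Cyp1a2 were strongly pericentral, and Cyp8b1 had the largest ratio between the libraries at matched lobule position among the members tested. RefSeq promoter windows (GRCm38.p6, 250 bases before to 50 after the start site) were found for 72 of the 94 members, and Cyp7a1 was not among them. Capitals mark CTTTGA, the core site of TCF factors that act in the Wnt pathway, read as TCAAAG on the other strand, and CAAAGTCCA, a site of Hnf4a, a main regulator of hepatocyte genes. Only bases before both the RefSeq start site and the annotated gene are printed.
Cyp2e1, chr7:140763569-140763738, plus strand: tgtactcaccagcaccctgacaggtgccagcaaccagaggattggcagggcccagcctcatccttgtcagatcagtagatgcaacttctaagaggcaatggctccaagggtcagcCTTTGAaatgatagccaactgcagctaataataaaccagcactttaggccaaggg
Cyp1a2, chr9:57683704-57683905, minus strand: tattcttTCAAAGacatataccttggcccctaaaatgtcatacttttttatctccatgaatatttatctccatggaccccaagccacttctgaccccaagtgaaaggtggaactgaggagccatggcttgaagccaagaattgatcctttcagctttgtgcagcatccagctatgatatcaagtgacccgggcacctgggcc
Cyp8b1, chr9:121916306-121916555, minus strand: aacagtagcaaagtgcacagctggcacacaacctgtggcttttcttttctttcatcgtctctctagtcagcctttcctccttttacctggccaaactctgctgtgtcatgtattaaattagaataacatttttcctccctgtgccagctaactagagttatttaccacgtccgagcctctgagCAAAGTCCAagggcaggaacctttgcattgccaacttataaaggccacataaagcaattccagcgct

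The CTTTGA letters began 135 bases before the start site in Cyp2e1 and 243 before it in Cyp1a2, where they lie on the other strand. The Hnf4a letters began 67 bases before the start site of Cyp8b1. Over all windows and both strands, CTTTGA was found in 16 of 72 member promoters (22.2%) and in 16.2% of 27025 promoters of all genes. Among pericentral members it was in 3 of 10 promoters (Cyp1a2, Cyp2c29 and Cyp2e1), and among periportal members in 1 of 4 (Cyp2j5). CAAAGTCCA was found in 8 member promoters (11.1%), against 0.477% of all promoters, and these were Cyp2c40, Cyp2c65, Cyp2c67, Cyp2c69, Cyp2c70, Cyp3a11, Cyp3a16 and Cyp8b1. Several of these are neighbouring copies within the Cyp2c and Cyp3a families. The 2 motifs overlap where a T precedes CAAAG. The D-box TTATGTAA, read by Dbp, Tef and Hlf, was in no member promoter and in 0.955% of all promoters. These are matches of letters and do not show binding.

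Of the 94 members, 43 reached 10 CPM in the hepatocytes of either library and 24 reached 100 CPM. A further 17 lay between 1 and 10 CPM, and 34 were under 1 CPM in both libraries. Together the members took 1.80% of all hepatocyte UMIs in the Tom- library and 2.19% in the Tom+ library. At fixed position this share was slightly lower in Tom+ cells in every layer. It went from 3.06% in layer 1 to 1.19% in layer 6 in Tom- cells and from 2.94% to 1.17% in Tom+ cells. Because the assay reads short probe targets, a higher CPM in one gene than in another does not show a higher level of its RNA, and levels are compared only within a gene.

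Layer 1 exceeded layer 6 at least 2-fold in both libraries for 14 of 45 members tested (31.1%), against 3.83% of the 7883 genes tested. Layer 6 exceeded layer 1 at least 2-fold for 5 members (11.1%), against 2.42% of all genes tested. The other 26 stayed within 2-fold in at least 1 library. The pericentral calls remained under the other ways of building the layers in which gradients were computed (24 layers were used for library ratios only), except that Cyp2d9 lost its call with 3 layers. The periportal calls of Cyp2f2 and Cyp17a1 remained under them as well. Cyp2j5 and Cyp8b1 lost theirs where clusters with few genes were kept, where the limit on marker-rich clusters was 4 times the median, or where the score used the even landmark genes. With 3 layers Cyp2b9, Cyp2j5 and Cyp8b1 all lost the call, and without the clusters of at least 90% Tom+ cells Cyp2j5 lost it by falling just under the limit in Tom+ cells. The median log2 ratio of layer 1 to layer 6 over the members was 0.75 in Tom- and 0.61 in Tom+ cells, and over all genes tested it was 0.16 and 0.21.

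Several enzymes that act on foreign compounds had steep pericentral gradients. Cyp2e1, which oxidises ethanol, paracetamol and CCl4 itself (chr7:140763739-140774987, plus strand, mm10), stood at 3994, 3189.9, 1998, 883.2, 263.5 and 195.1 CPM from layer 1 to layer 6 in Tom- cells. In Tom+ cells the same layers held 4113, 2999, 1938, 876.4, 325.0 and 268.1 CPM. The levels declined through every layer in both libraries, and the log2 ratio of layer 1 to layer 6 was 4.36 (4.33 to 4.38) in Tom- and 3.94 (3.91 to 3.97) in Tom+ cells. This corresponded to a 20.5-fold and a 15.3-fold gradient.

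Cyp1a2, which metabolises caffeine and aromatic amines (chr9:57676937-57683703, minus strand), followed the same course. Its level from layer 1 to layer 6 was 1031, 657.7, 399.1, 211.4, 84.4 and 61.4 CPM in Tom- cells. In Tom+ cells it was 1145, 665.7, 406.6, 224.7, 99.4 and 80.7 CPM. The layer 1 to layer 6 fold was 16.8 in Tom- and 14.2 in Tom+ cells. Its near relative Cyp1a1, known to be induced through the Ah receptor, had 305 and 502 UMIs in all, 0.785 and 1.27 CPM. It was under the CPM minimum and so was not tested, with layer 1 to layer 6 log2 ratios of 2.23 and 2.97. Its log2 ratio of Tom+ over Tom- was 0.70 over all hepatocytes summed. With the 6 layers weighted equally it was 0.05 (-0.18 to 0.275).

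The Cyp2c subfamily, the largest with 14 members, gave 5 pericentral members among 10 tested (against 3.83% of all genes tested). None was periportal (against 2.42%). Cyp2c29, a target of the drug receptor CAR (chr19:39269405-39330713, plus strand), stood at 8741, 7734, 5404, 2677, 1020.1 and 720.6 CPM in the 6 layers of Tom- cells. In Tom+ cells it stood at 8280.3, 7264, 5242, 2524, 929.4 and 745.3 CPM, a gradient of 12.1-fold in the first library and 11.1-fold in the second. Cyp2c55 went from 105.1 CPM in layer 1 to 2.72 CPM in layer 6 in Tom- cells and from 110.5 to 3.45 CPM in Tom+ cells. Cyp2c37 was also highest in layer 1, with log2 ratios of 3.01 and 3.29. Cyp2c50 and Cyp2c54 had their highest level in layer 2 of both libraries, with log2 ratios of 2.48 and 2.78 for Cyp2c50 and of 1.57 and 1.90 for Cyp2c54.

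The other Cyp2c members named here stayed within 2-fold. Cyp2c67, with log2 ratios of 0.90 and 0.70, and Cyp2c70, which makes muricholic acids in the mouse, with 0.75 and 0.61, leaned to the pericentral side and passed a fold limit of 1.5. Cyp2c23, an arachidonic acid epoxygenase, peaked in layer 4 with log2 ratios of -0.68 and -0.52, and Cyp2c69 had -0.16 and -0.67. Cyp2c37, Cyp2c50 and Cyp2c54 share sequence: 54.6%, 55.4% and 49.2% of the 25-base windows of their transcripts occur in another member. For Cyp2c67 and Cyp2c69 the shares are 68.5% and 70.3%. A probe for any of these can therefore read more than 1 member.

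Of the bile acid enzymes, 2 were pericentral (against 3.83% of all genes tested), 1 was periportal (against 2.42%) and 3 were called at neither end. Cyp7a1, the rate-limiting enzyme of bile acid synthesis (chr4:6265612-6275633, minus strand), had a layer 1 to layer 6 ratio of 5.44 (5.38 to 5.51) in Tom- and 4.72 (4.65 to 4.79) in Tom+ cells on the log2 scale. From layer 1 to layer 6 it stood at 961.9, 570.1, 266.5, 106.4, 32.6 and 22.1 CPM in Tom- cells. In Tom+ cells it stood at 1144, 657.1, 347.0, 162.7, 60.8 and 43.5 CPM. Every Tom+ layer lay above the Tom- layer at the same position, and the gradient was 43.5-fold in Tom- and 26.3-fold in Tom+ cells.

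Cyp8b1, the sterol hydroxylase that directs synthesis toward cholic acid (chr9:121914356-121916305, minus strand), peaked in layer 4. Its level from layer 1 to layer 6 was 14.4, 33.4, 51.0, 60.6, 43.7 and 32.2 CPM in Tom- cells. In Tom+ cells it was 20.2, 43.9, 70.7, 89.2, 65.7 and 58.4 CPM. Layer 1 was the lowest in both libraries, and the log2 ratio of layer 1 to layer 6 was -1.16 in Tom- and -1.53 in Tom+ cells.

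Cyp27a1, the mitochondrial enzyme that starts the alternative bile acid route, was pericentral with log2 ratios of 1.67 and 1.66. The oxysterol hydroxylases Cyp7b1 (0.42 and 0.08) and Cyp39a1 (-0.42 and -0.61) stayed within 2-fold. Of the 7 bile acid genes listed, 6 were tested. Cyp46a1, the cholesterol hydroxylase known from brain, stood at 5.20 CPM in Tom- and 3.47 CPM in Tom+ hepatocytes. By layer its log2 ratio of Tom+ over Tom- ran from -0.41 in layer 1 to -0.003 in layer 2.

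**Figure D1:**
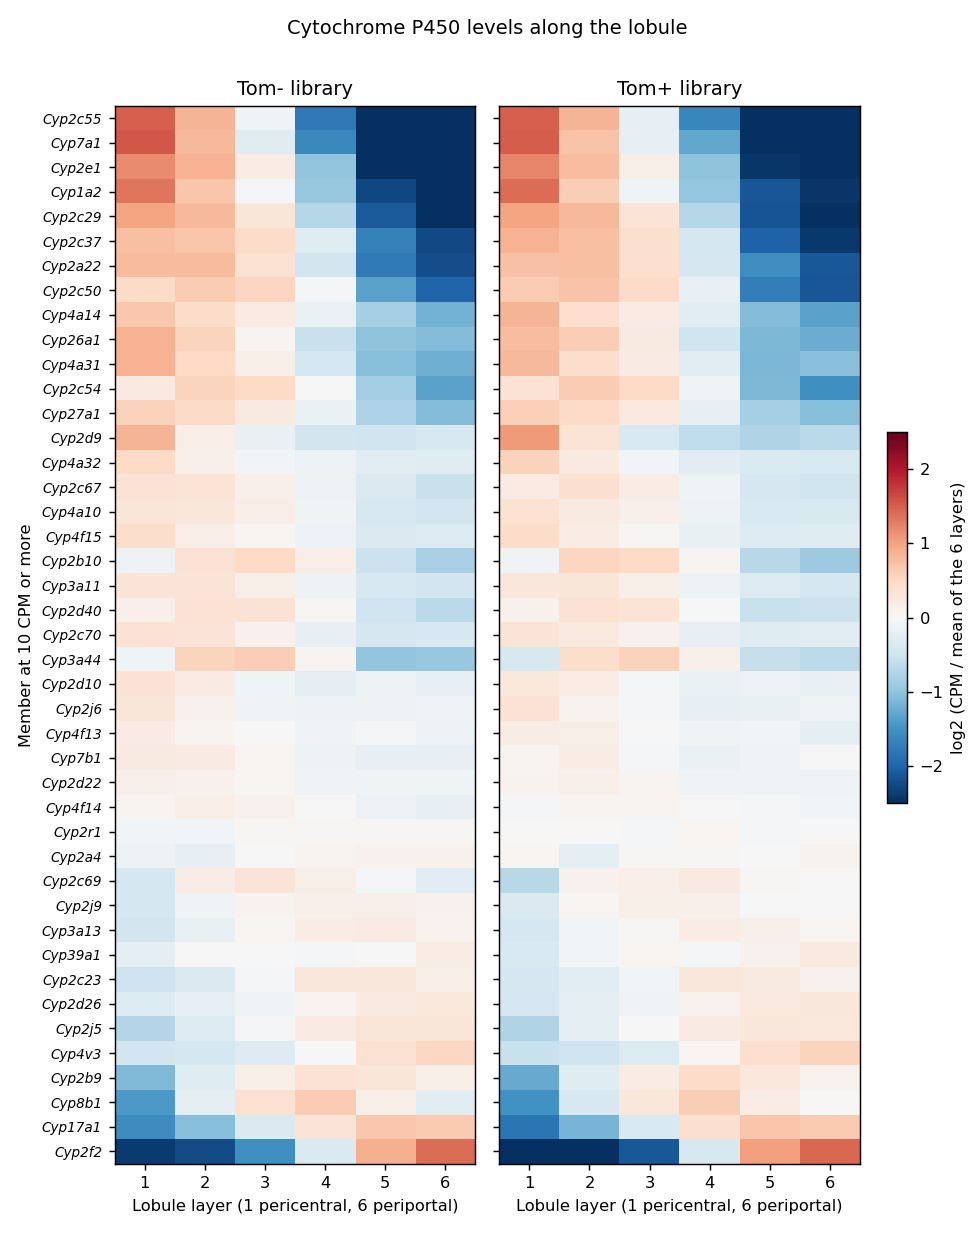
Level of each of the 43 members at 10 CPM or more (rows, ordered by the mean layer 1 to layer 6 ratio) in lobule layers 1 to 6 (columns) of the Tom- library (left) and the Tom+ library (right), as log2 of CPM over the mean of the 6 layers, with red high and blue low and colours limited at 2.5 either way. Cyp2c55, Cyp7a1 and Cyp2e1 stand at the pericentral end and Cyp2f2 and Cyp17a1 at the periportal end in both libraries.

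The periportal end was led by Cyp2f2, which is known for metabolising naphthalene (chr7:27119909-27133660, plus strand). In Tom- cells it stood at 26.9, 29.9, 49.0, 109.7, 261.0 and 369.8 CPM from layer 1 to layer 6. In Tom+ cells it stood at 20.1, 22.2, 37.7, 123.8, 334.2 and 444.9 CPM. The log2 ratio of layer 1 to layer 6 was -3.78 (-3.89 to -3.67) in Tom- and -4.46 (-4.53 to -4.40) in Tom+ cells, a difference between 1 library and 1 library with no replicate check.

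Cyp17a1, a steroid hydroxylase and lyase, was highest in layer 5 and had log2 ratios of -2.22 and -2.49. Its levels in layers 1 and 6 were 42.9 and 200.4 CPM in Tom- cells and 37.8 and 211.5 CPM in Tom+ cells. It was the only one of the 6 listed steroid hormone enzymes that reached 10 CPM. Cyp2j5, an arachidonic acid epoxygenase, had -1.04 and -1.01 and so lay at the limit. Cyp4v3, a fatty acid hydroxylase, had -0.98 in Tom- and -1.11 in Tom+ cells and passed the limit in the second library only.

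The Cyp2b pair peaked inside the lobule. Cyp2b10, the classic CAR target, stood at 405.8, 568.7, 619.7, 496.3, 305.2 and 251.6 CPM in Tom- cells, highest in layer 3. In Tom+ cells it stood at 394.8, 605.7, 595.3, 437.3, 257.4 and 222.0 CPM, highest in layer 2. Cyp2b9, known as predominant in female liver, was highest in layer 4 in both libraries, at 390.6 and 360.8 CPM, and lowest in layer 1, at 141.2 and 109.7 CPM. Both libraries came from male mice.

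Among fatty acid hydroxylases, Cyp4a14 was pericentral with log2 ratios of 1.85 and 2.20 and Cyp4a31 with 2.09 and 1.85. Cyp4a10 (0.77 in both libraries) and Cyp4a32 (0.81 and 0.95) leaned the same way without reaching 2-fold. Cyp4a10 and Cyp4a32 share 41.7% and 57.8% of the windows of their transcripts with each other, while Cyp4a14 shares 3.88% with any other member. Cyp4f15 had 0.78 and 0.75, and Cyp4f14 had 0.26 and 0.03. Cyp26a1, which degrades retinoic acid, was pericentral with 1.96 and 2.02, and Cyp2r1, a vitamin D hydroxylase, was flat with -0.08 and -0.01.

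The remaining subfamilies held few gradients. Cyp3a11, the main Cyp3a enzyme of mouse liver, went from 7668 CPM in layer 1 to 4383 CPM in layer 6 in Tom- cells and from 6627 to 4053 CPM in Tom+ cells, under 2-fold in both. Cyp3a13 had log2 ratios of -0.54 and -0.48, and Cyp3a44 was highest in layer 3. Of 5 Cyp2d members tested, only Cyp2d9, a testosterone hydroxylase predominant in male liver, was pericentral (against 3.83% of all genes tested), with 1.25 and 1.73. Cyp2d26 leaned to the portal side with -0.62 and -0.70, and Cyp2d22 was nearly flat with 0.23 and 0.19. Cyp2a22 was pericentral with 3.01 and 2.86, with 45.8% of its windows shared with Cyp2a12.

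**Figure D2:**
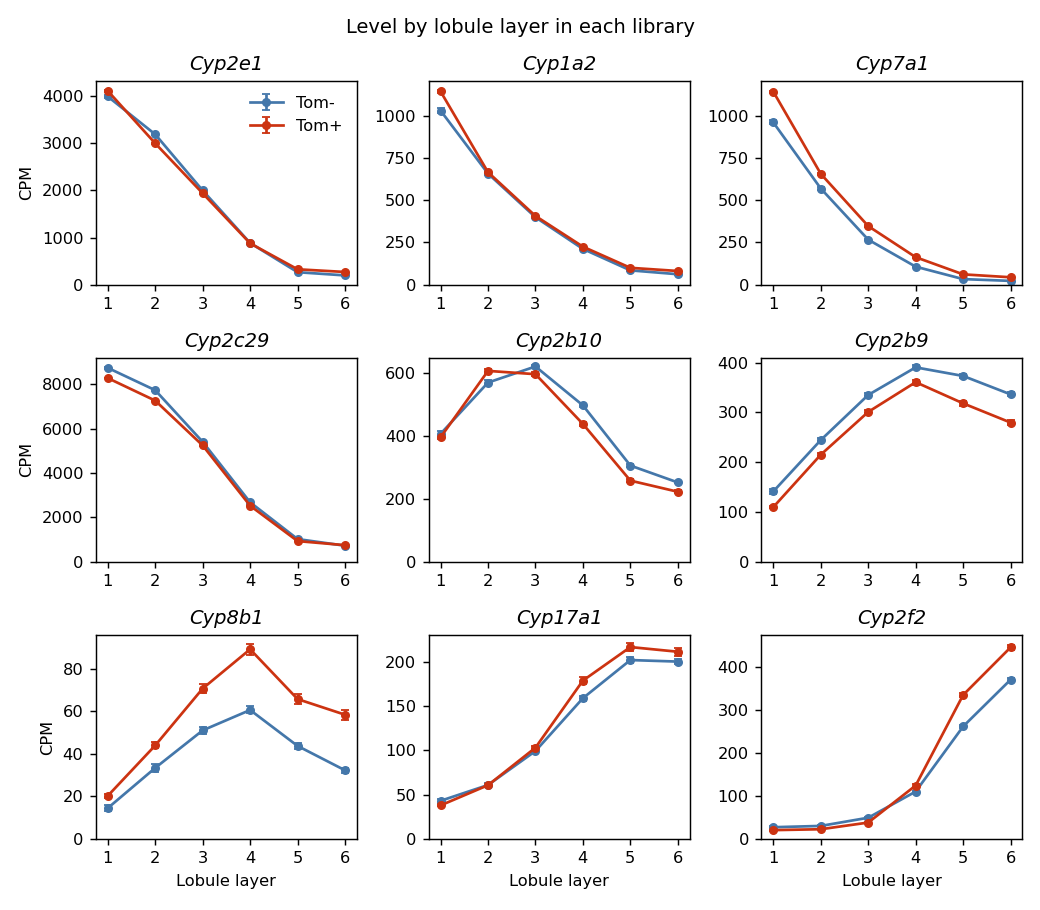
CPM of 9 members (vertical axes, each starting at 0) in lobule layers 1 to 6 (horizontal axes) of the Tom- library (blue) and the Tom+ library (red), with exact Poisson 95% intervals that are mostly smaller than the points. Cyp2e1 and Cyp2c29 nearly coincide in the libraries, while every Tom+ layer lies above Tom- for Cyp7a1 and Cyp8b1 and below it for Cyp2b9.

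The Tom+ library held more pericentral cells, with 25.9% of its hepatocytes in layer 1 against 7.43% of the Tom- hepatocytes, and 9.59% against 23.7% in layer 6. Summed over all hepatocytes, 14 of 43 members were higher in Tom+ by a log2 ratio of at least 0.3 (32.6%, against 8.15% of 7808 genes) and 5 were lower (11.6%, against 2.57%). With the mean CPM of the 6 layers compared, each layer weighted equally, 4 were higher (9.3%, against 2.33% of 7773 genes) and 0 were lower (against 0.515%). In this ratio the layers where a member is highest count most. The median log2 ratio of Tom+ over Tom- over the members went from 0.14 before matching to -0.02 after it, and over all genes tested it was 0.03 and -0.01.

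Cyp2e1 shows the size of this shift. Summed over all hepatocytes it stood at 1227 CPM in Tom- and 2205 CPM in Tom+ cells, a log2 ratio of 0.85. At matched position it stood at 1754 and 1753 CPM, and the log2 ratio was -0.0006 (-0.0061 to 0.0049). By layer the ratio ran from -0.09 in layer 2 to 0.46 in layer 6, where the levels were 195.1 and 268.1 CPM. The log2 ratio of Cyp1a2 went from 0.97 to 0.10, that of Cyp2c29 from 0.65 to -0.07 and that of Cyp2c55 from 1.13 to 0.08. The periportal Cyp17a1 went from -0.42 to 0.08 and Cyp2f2 from -0.58 to 0.22. By layer the ratio of Cyp2f2 ran from -0.43 in layer 2 to 0.36 in layer 5, so its matched value followed its high layers.

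**Figure D3:**
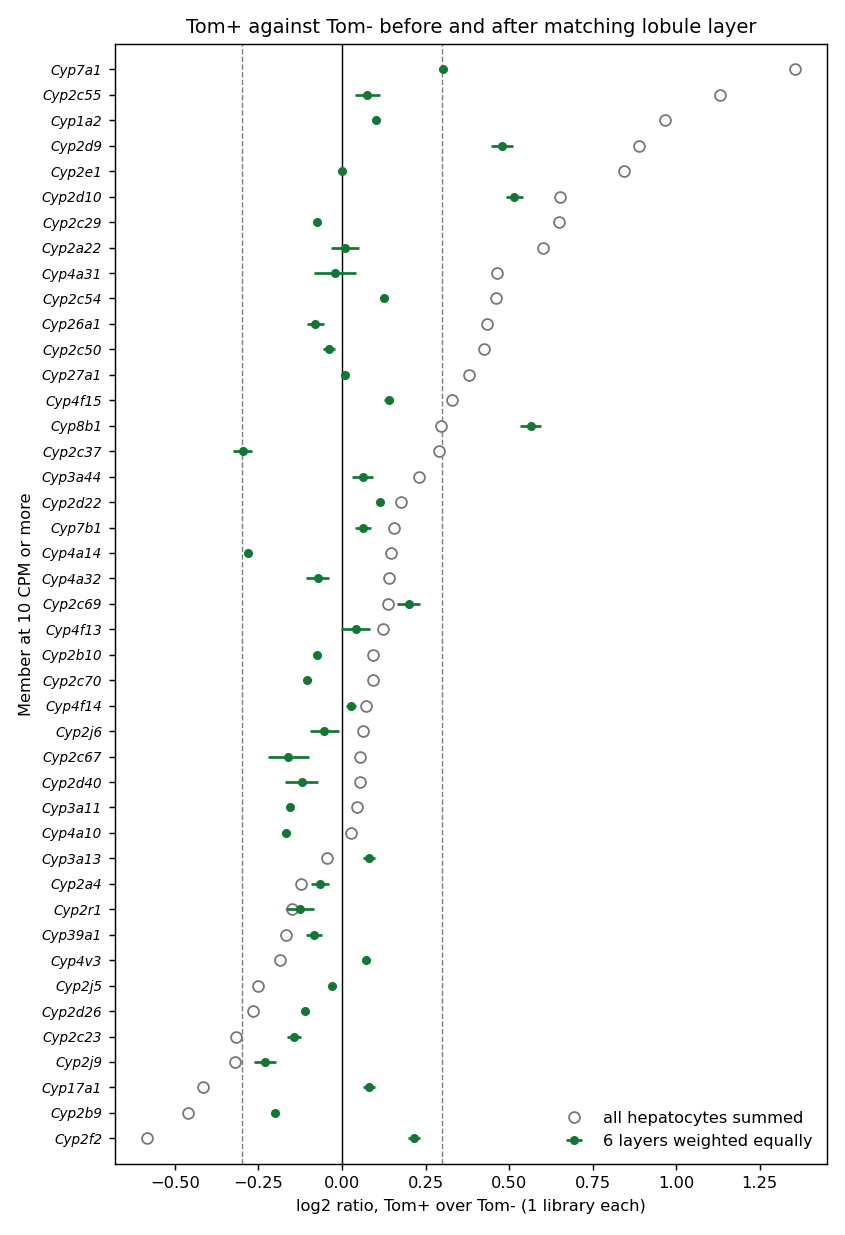
log2 ratio of Tom+ over Tom- (horizontal axis) for the 43 members at 10 CPM or more (rows), over all hepatocytes summed (open circles) and with the 6 lobule layers weighted equally (green points with 95% counting intervals). Dashed lines mark 0.3 either way, and 4 green points lie past the right line and 0 past the left line.

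Bile acid synthesis held 2 of the 4 members that were higher in Tom+ at matched position. Cyp8b1 averaged 39.2 CPM over the layers of Tom- cells and 58.0 CPM over those of Tom+ cells, and its matched log2 ratio was 0.56 (0.53 to 0.60). The ratio was 0.48, 0.40, 0.47, 0.56, 0.59 and 0.86 from layer 1 to layer 6, so Tom+ was higher in 6 of 6 layers. Without the clusters of at least 90% Tom+ cells it was 0.68, and over every other setting with matched position it ran from 0.51 to 0.61.

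Cyp7a1 averaged 326.6 and 402.6 CPM, and its matched log2 ratio was 0.30 (0.29 to 0.31), which lies at the limit. By layer the ratio was 0.25, 0.20, 0.38, 0.61, 0.90 and 0.98, higher in Tom+ in 6 of 6 layers. Without the clusters of at least 90% Tom+ cells it was 0.13, and without clusters of at least 90% cells of either library it was 0.10, so the call was lost. With 3 layers it was 0.42. With finer layers it was again under 0.3, at 0.25 for 12 and 0.23 for 24 layers. The same held without the 10% of cells with most UMIs (0.28), as a mean over cells (0.28), with the unthinned score (0.27) and with the odd landmark genes (0.29). Within layer 1 the mean score was 2.29 in Tom+ and 2.11 in Tom- cells, so the 6 layers do not match position fully. The Cyp7a1 ratios were largest in layers 4 to 6. There the mean scores were -0.59, -1.30 and -1.72 in Tom+ and -0.60, -1.31 and -1.75 in Tom- cells. Slc1a2 and Lhpp, pericentral genes kept out of the score, differed more in these layers. Together they stood at 23.2, 10.6 and 8.17 CPM in Tom+ and 17.4, 5.80 and 4.84 CPM in Tom- cells. The part of position in the Cyp7a1 ratio was not tested. Of the other listed bile acid genes, Cyp27a1 had 0.01, Cyp7b1 had 0.06, Cyp39a1 had -0.08 and Cyp2c70 had -0.10.

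The other 2 were neighbours in the Cyp2d cluster on chromosome 15. Cyp2d10 (chr15:82402846-82407195, minus strand) averaged 72.0 and 103.0 CPM and had a matched ratio of 0.52 (0.49 to 0.54), with a range over the layers of 0.43 to 0.59. Cyp2d9 (chr15:82433437-82456845, plus strand) averaged 39.0 and 54.4 CPM and had a matched ratio of 0.48 (0.44 to 0.51), and its layer ratios were 0.69 and 0.66 in layers 1 and 2 and 0.21 to 0.30 in layers 3 to 6. Without the clusters of at least 90% Tom+ cells Cyp2d10 had 0.48 and Cyp2d9 had 0.15, so the call of Cyp2d9 was lost. Without clusters of at least 90% cells of either library Cyp2d10 fell further, to 0.33, close to the limit, and Cyp2d9 had 0.16. Cyp2d10 shares 57.3% of its transcript windows with other members, most of them with Cyp2d11 (42.7%), and Cyp2d9 shares 52.0%, with Cyp2d12 the closest (26.5%), so these values may hold reads of relatives. Cyp2d11 had 1768 and 1450 UMIs, more in the Tom- library.

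None of the 43 members tested was lower in Tom+ by 0.3 or more at matched position, but 2 came close and were lower in 6 of 6 layers. Without the CPM minimum Cyp4b1 alone was called lower (against 8.76% of all genes), with layer ratios from -0.69 to -0.33. More members were called higher there (against 7.72%). Cyp4b1 lay under 10 CPM in hepatocytes and at 166.0 CPM in the left-out cluster richest in the endothelial gene Pecam1. Endothelial markers summed were also lower in Tom+ hepatocytes in every layer, and their part in the Cyp4b1 ratio was not tested. Cyp2c37 had -0.30 (-0.32 to -0.27), with layer ratios from -0.63 to -0.18, and -0.33 without the clusters of at least 90% Tom+ cells, past the limit. Without those clusters Cyp2c69 went the other way, from 0.20 to 0.35. Cyp4a14 had -0.28 (-0.29 to -0.27), with layer ratios from -0.54 in layer 5 to -0.09 in layer 1. With 12 and 24 layers it had -0.304 and -0.315, past the limit. Summed over all hepatocytes without matching, both were higher in Tom+, with log2 ratios of 0.29 for Cyp2c37 and 0.15 for Cyp4a14. Cyp3a11 also lay lower in 6 of 6 layers by a small amount, with a matched log2 ratio of -0.16 (-0.16 to -0.15). Cyp4a10 had -0.17, Cyp2b9 -0.20, Cyp2j9 -0.23 and Cyp2c67 -0.16, each lower in 6 of 6 layers.

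**Figure D4:**
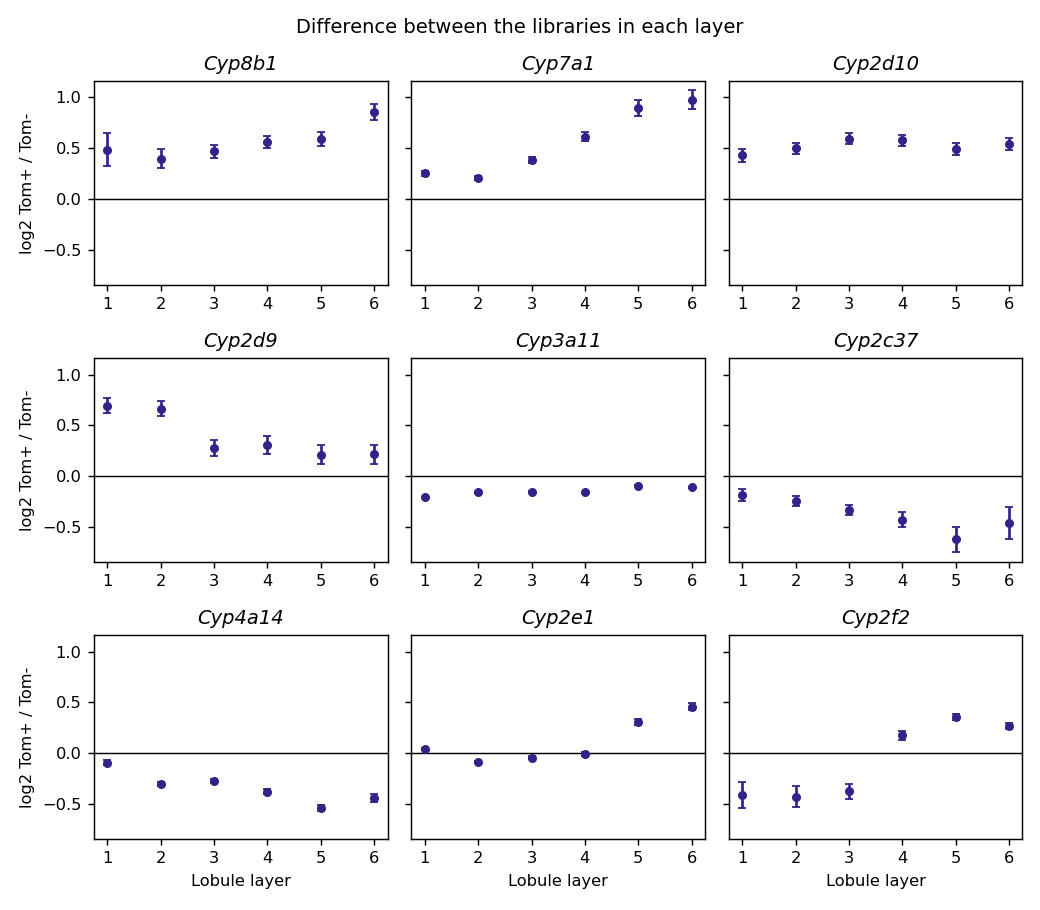
log2 ratio of Tom+ over Tom- (vertical axes) in each lobule layer (horizontal axes) for 9 members, with 95% counting intervals from 1 library per group. Cyp8b1, Cyp7a1, Cyp2d10 and Cyp2d9 lie above 0 in all 6 layers, Cyp3a11, Cyp2c37 and Cyp4a14 below 0 in all 6, and Cyp2f2 changes side between layers 3 and 4.

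The ratios at matched position were also read by lists of known regulation. The 8 targets of CAR and PXR had a median of -0.06, and the 4 tested targets of PPARA had -0.12. Among the 8, 0 were called higher (against 2.33% of all genes) or lower (against 0.515%), which in so few genes lies near those shares. Of the 5 genes listed as male-predominant, 2 were tested, with a median of 0.27, and 1 was higher (Cyp2d9, against 2.33% of all genes). The other 3 were under the CPM minimum. Of these Cyp2u1, with 3100 and 2928 UMIs, had a matched log2 ratio of 0.05 (-0.03 to 0.13), and Cyp4a12a, with 21 and 68 UMIs, had 1.18 (0.40 to 1.95). Cyp4a12b had 0 and 8 UMIs, and 67.9% of its transcript windows occur in Cyp4a12a. Of the 7 measured female-predominant genes, 5 were tested, with a median of -0.07. None was called higher (against 2.33% of all genes) or lower (against 0.515%). The 2 under the CPM minimum were Cyp2b13 with 0.13 (0.01 to 0.25) and Cyp3a16 with 0.42 (0.32 to 0.52). A count of 0 allows up to 3 counts, which is 0.00772 CPM in the Tom- hepatocytes.

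Levels of other cell types and of held-out position genes moved with the same comparison. The 6 endothelial markers summed to 34.8 to 41.7 CPM over the layers in Tom- cells and to 25.2 to 34.8 CPM in Tom+ cells, and the 6 macrophage markers to 131.3 to 201.6 and 98.1 to 172.8 CPM. The pericentral genes Slc1a2 and Lhpp together stood at 4.84 CPM in layer 6 of Tom- cells and 8.17 CPM in layer 6 of Tom+ cells. In layer 2 the order was the other way, at 101.3 and 87.6 CPM. The periportal genes Gls2 and Etnppl stood at 60.3 and 43.1 CPM in layer 1 and at 629.5 and 720.4 CPM in layer 6, so in layer 6 both pairs were higher in Tom+ cells. The 3 mid-lobule genes Hamp, Hamp2 and Igfbp2 together were higher in Tom+ cells in layer 1, at 448.1 and 467.2 CPM, and lower in layers 2 to 6, with 701.4 and 574.9 CPM in layer 4 and 342.6 and 275.3 CPM in layer 6. The differences of the pericentral pair in layer 6 and of the periportal pair in layer 1 run in the same direction as those of Cyp2e1, Cyp1a2 and Cyp7a1 in layer 6 (0.46, 0.39 and 0.98) and of Cyp2f2 in layer 1 (-0.42), and their part in the P450 ratios was not tested.

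The partners of the P450 enzymes were compared by lists. Of 15 tested genes for electron transfer and haem synthesis, 0 were called higher (against 2.33% of all genes) or lower (against 0.515%) in Tom+ at matched position. In so few genes 0 calls lie near those shares. The median was 0.05, or -0.01 without the clusters of at least 90% Tom+ cells. Por, the oxidoreductase that feeds the enzymes electrons, had 0.02, and Alas1, the first enzyme of haem synthesis, had 0.21 and was higher in 6 of 6 layers. Along the lobule 5 of the 15 were pericentral (against 3.83% of all genes tested): Por, Cyb5a, Alas1, Alad and Cpox, with Por at 1.68 in both libraries.

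Of 16 regulators, 2 were higher in Tom+ at matched position (against 2.33% of all genes) and 1 was lower (against 0.515%). Both that were higher are clock-controlled factors that bind D-boxes. Dbp had a log2 ratio of 1.40 (8.94 and 22.6 CPM over all hepatocytes) and Tef had 0.38, while their relative Hlf had 0.07. The 1 regulator that was lower was Nr0b2 (SHP), known as a bile-acid-induced repressor of Cyp7a1 and Cyp8b1, with a log2 ratio of -0.38 and a lower level in 6 of 6 layers. Without the clusters of at least 90% Tom+ cells Dbp had 0.50, while Tef had 0.20 and Nr0b2 had -0.28 and so lost their calls. With 3 layers or the even landmark genes Ahr passed the limit as well, at 0.33 and 0.30. The bile acid receptor Nr1h4 had 0.02 and Hnf4a -0.04. Nr1i3, the gene of CAR, was pericentral with 3.70 and 4.26, and Ahr with 2.31 and 2.42.

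Spread between cells was measured within layers, where it includes the change of position across a layer. The Fano factor, the variance of UMIs over cells divided by their mean, equals 1 for counting noise alone and was taken within layers at 10000 UMIs per cell. It was at least 2 in both libraries for 8 of 43 members (18.6%), against 1.17% of 7677 genes: Cyp2b10, Cyp2c29, Cyp2e1, Cyp2f2, Cyp3a11, Cyp4a10, Cyp4a14 and Cyp7a1. The factor grows with the mean, and at 5000 UMIs per cell only 3 members reached 2. With 12 layers the same 8 did, and the share of all genes was not counted in either setting. Cyp7a1 had a median factor over layers of 3.08 in Tom- and 3.65 in Tom+ cells, with means over layers of 3.62 and 4.40 UMIs. Cyp2d26, counted at a higher mean of 8.32 and 7.63 UMIs, had factors of 1.23 and 1.29. As a rough scaling, the median factor over layers minus 1 was divided by the mean UMIs over layers and averaged over the 2 libraries. For members with steep gradients these parts can come from different layers. The value was largest for Cyp8b1 (1.64), Cyp2a4 (1.53) and Cyp3a44 (1.27), a ranking chosen after the values were seen. The order differed within libraries. In Tom+ cells Cyp2a4 had 1.63 and Cyp8b1 1.38, and in Tom- cells Cyp2c55 had 1.29 and Cyp3a44 1.21. Cyp2a4 shares 63.7% and Cyp3a44 33.3% of transcript windows with other members, so their counts may hold reads of relatives.

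**Figure D5:**
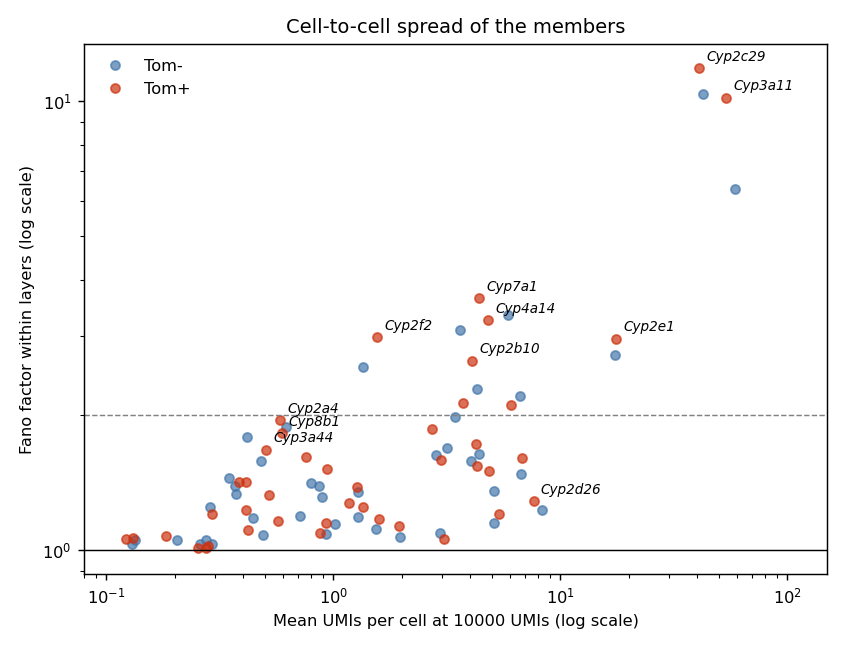
Fano factor within lobule layers (median over layers, vertical axis, log scale) against the mean UMIs per cell at 10000 UMIs (mean over layers, horizontal axis, log scale) for 43 members in the Tom- library (blue) and the Tom+ library (red). The lines mark counting noise (1) and the limit of 2, and Cyp7a1 at 3.65 lies above Cyp2d26 at 1.29 in Tom+ cells although its mean UMI count is lower.

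The members below 10 CPM in hepatocytes were read mainly for where else they appeared. Those between 1 and 10 CPM were Cyp1a1, Cyp20a1, Cyp21a1, Cyp26b1, Cyp2a12, Cyp2a5, Cyp2b13, Cyp2c38, Cyp2c39, Cyp2c40, Cyp2d11, Cyp2u1, Cyp3a16, Cyp3a59, Cyp46a1, Cyp4b1 and Cyp4f16. Another 10 had no UMI in the hepatocytes of either library: Cyp19a1, Cyp24a1, Cyp2b19, Cyp2b23, Cyp2j11, Cyp2j13, Cyp2j7, Cyp2t4, Cyp2w1 and Cyp4a29. The other 24 under 1 CPM had from 1 to 462 UMIs over both libraries.

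A few of them were higher in the clusters that were left out of the hepatocytes. Cyp4b1 stood at 166.0 CPM in the cluster richest in the endothelial gene Pecam1, from 1156 UMIs, against 1.93 and 1.26 CPM in Tom- and Tom+ hepatocytes. Cyp26b1, which degrades retinoic acid, stood at 34.3 CPM there from 239 UMIs, against 0.983 and 1.04 CPM. Cyp4f18 stood at 1.99 CPM in the largest Ptprc-rich cluster from 184 UMIs and had 12 and 22 UMIs in hepatocytes. Among smaller Ptprc-rich clusters it stood at 9.74 CPM in 39 cells (11 UMIs) and 3.11 CPM in 159 cells (18 UMIs), and lower in the others. Cyp1b1 had 23 UMIs in the cluster richest in Dcn against 4 and 4 in hepatocytes. Cyp2s1 had 60 UMIs in a few-gene cluster of 50 cells, whose Dcn level was 8.25 times the median over clusters. The Pecam1-rich cluster also held RNA of other cell types. Its Dcn level was 2.8 times the median over clusters, its 6 macrophage markers summed to 777.1 CPM in Tom- and 570.3 CPM in Tom+ cells, and its 6 stellate markers to 181.3 and 190.5 CPM. Which of these cells the Cyp4b1 and Cyp26b1 UMIs came from was not tested. Its 6 hepatocyte markers summed to 163075 CPM among its Tom- cells and to 161356 CPM among its Tom+ cells. In the hepatocyte layers the same markers summed to 115182 to 153406 CPM in Tom- and 114575 to 160070 CPM in Tom+ cells. The cluster thus held no less of this marker RNA than the hepatocytes. Its 6 endothelial markers summed to 1796 and 1945 CPM. Whether its cells were endothelial cells with hepatocyte RNA or hepatocytes with endothelial RNA was not tested. Cyp2e1 stood at 645.1 and 861.3 CPM in the cluster, above its own level in layer 6 of the hepatocytes. Free RNA and a member's own low level at the far end of its gradient cannot be told apart here.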

How the data were processed

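The deposited matrices hold raw UMI counts for 19073 features in each cell. The authors fixed liver tissue, dissociated it, sorted Hoechst+ MitoBrilliant 646+ cells into Tom+ and Tom- fractions, hybridised probes (10x Genomics Flex) and counted UMIs, and the submitters' processing notes name Cell Ranger 7.2.0 and the mm10 build. Each gene is read at short probe targets, so close relatives may share probes, whose sequences were not used here. Cells were kept with a mitochondrial fraction of at most 0.05, 2000 to 10000 genes and at most 100000 UMIs, which left 20159 Tom- and 13378 Tom+ cells. For clustering, each cell was rescaled to 10000 counts and log-transformed (2000 variable genes, 30 components, 20 neighbours, Leiden resolution 0.8). Following the exclusions of the study's methods, few-gene clusters (median genes below 0.75 of the median over cells) were removed. Clusters in which Pecam1, Dcn or Ptprc reached 2.5 times its median over clusters were removed as well. The largest few-gene cluster held 4232 Tom- and 406 Tom+ cells, so this removal was unequal between the libraries. Doublets were not called, and leaving out the 10% of cells with most UMIs was an alternative.

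The lobule score was the mean of 10 pericentral minus that of 13 periportal landmark genes, as z scores, in cells thinned to 10000 UMIs. It left out 384 Tom- and 424 Tom+ cells with fewer UMIs. The 6 layers held equal shares of both libraries weighted equally, and 38.3% of Tom- and 31.8% of Tom+ cells lay within 0.1 SD of a boundary. Counts were summed per library and layer as CPM with exact Poisson intervals. Gradients compare layers 1 and 6 with exact conditional intervals, in genes with at least 10 CPM in either layer and 20 UMIs. Library ratios compare the mean CPM of the 6 layers, in genes with at least 10 CPM in either library, and were called at a log2 ratio of 0.3. The Fano factor was taken within layers as the median over layers, in genes with a mean of at least 0.1 UMI. A pseudocount of 0.5 UMIs was added to ratios over all genes. Transcript sharing used the longest coding transcript of GENCODE vM21. The calculations were tested on simulated data.

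Genes were named that reached 100 CPM in either library, that were among the 6 largest or smallest gradients or library ratios or the 6 highest Fano factors, or that were fixed by function. Other members are named for completeness, after their values were seen. The members and gene lists were chosen with earlier results of these data known. Clustering used scanpy 1.11.5 with leidenalg 0.10.2, and intervals used scipy 1.17.1 under Python 3.11.15.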

Additional observations from a re-analysis of the deposited data

How the results depend on the processing

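No paired analysis was possible because 1 library stood for each group, and so no replicate could be left out. Of 83 counts recomputed under the alternatives 65 stayed within 1.5 times the value given and 18 did not. Of the values of single members, 1241 stayed within the counting interval of the value given and 614 did not. All 629 recomputed gradients and all 76 recomputed library ratios past their limits kept their sign, as did 555 of 561 gradients and 553 of 589 library ratios within the limits. Settings that changed only a CPM minimum, the fold limit or the log2 limit returned the same gradients and ratios. Their values could not move, yet they are included among those that stayed and those that kept their sign. Without the CPM minimum 71 members were counted as detected, 16 were higher and 1 was lower in Tom+ at matched position, while 7.72% of 13463 genes of all kinds were higher and 8.76% lower. A log2 limit of 1 left 0 higher (against 0.0257% of all genes tested), and no matching of position gave 14 higher and 5 lower. Members lower in Tom+ numbered 1 with the marker limit at 4 times the median (against 0.692% of all genes tested). The unthinned score also gave 1 (0.514%), as did leaving out the clusters of at least 90% Tom+ cells (0.44%). Leaving out those of at least 90% cells of either library (chosen after seeing the data) gave 1 too (0.502%). There were 2 with 12 layers (0.54%) and with 24 layers (0.553%, also chosen after seeing the data). A fold limit of 1.5 gave 23 pericentral members, and the share of all genes at that limit was not counted. Periportal members numbered 3 with few-gene clusters kept, with the marker limit at 4 times and with the even landmark genes, and 2 with 3 layers. At 5000 UMIs per cell 3 members had a high Fano factor. For these periportal and Fano counts the share of all genes was not counted. The cause of these shifts was not tested, beyond what each setting changes by construction. Without the clusters of at least 90% of either library, genes of all kinds called higher went from 181 of 7773 to 49 of 7767. Gradients and library ratios were not recomputed at lower depth, and the Fano factors, as given, fell with it. The 34 members under 1 CPM rest on at most 462 UMIs over both libraries and entered no gradient or ratio call except without the CPM minimum.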
